A study of Mus musculus with 9 samples.

Results

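Matrix metalloproteinases, the Timp genes that encode their tissue inhibitors and 2 membrane sheddases were followed in mouse bone marrow-derived macrophages (BMDMs). The genes were 6 Mmp genes (Mmp8, Mmp9, Mmp12, Mmp13, Mmp14 and Mmp19), Timp1 and Timp2, and Adam8 and Adam17, that is 10 of the 24061 gene symbols of the count table. They were picked by symbol from the table, and the rows of 1 symbol were summed. The macrophages came from the marrow of female C57BL/6J mice aged 8 to 10 weeks, were differentiated for 7 days in medium conditioned by L cells, and spent 1 day without serum. Every group shared this preparation and the C57BL/6J background, and no genetic change was made. The Veh group received the solvent DMSO. The LPS group received 10 ng/mL lipopolysaccharide, the bacterial agonist of TLR4, for 2 hr. The T0+LPS group received 500 nM T0901317 (T0), a synthetic agonist of the liver X receptors (LXRs), for 3 hr before the same LPS exposure. By the study's methods LPS was added to the medium that held T0, so T0 was also present during LPS. By the same methods, cells not given T0 received DMSO in its place. Each group had 3 libraries from separately differentiated cultures, sequenced as polyadenylated RNA, with 13299044 to 16467983 counts per library. T0 without LPS was not analysed here, and the time at which Veh cells were harvested is not given in the sources used here.

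Matrix metalloproteinases are zinc endopeptidases that cut collagens, elastin and other proteins of the extracellular matrix. Most are secreted as inactive proenzymes and are switched on when the propeptide is removed, often through plasmin, another MMP or furin. TIMP proteins bind the active site and block it, and TIMP2 also serves with MMP14 at the cell surface in the activation of pro-MMP2. ADAM proteases are relatives with a transmembrane anchor, and ADAM17 releases TNF and other surface proteins from the macrophage membrane. A transcript level says nothing by itself about the amount of active enzyme, because so much of the control of these enzymes lies after transcription.

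Cultures held macrophage RNA by their markers. Of 10 macrophage markers 9 averaged at least 1 CPM (counts scaled to a common library size), and their summed level was between 27435 and 37098 CPM in the 9 libraries. The exception was Itgam, which had no reads and only 3 bases that could be counted. Fibroblast markers, whose cells are a known source of several MMPs, summed to at most 0.713 CPM, and Dcn, Lum and Pdgfra were at 0; Pdgfrb and Postn were also at 0, on only 3 and 165 countable bases. Both treatments were visible in their known targets. Il1b, which encodes interleukin-1β, was 1.78 ± 1.2 CPM in Veh (SD, n = 3, as for all values given this way) and 1143 ± 136 CPM in LPS. Abca1, an LXR target that exports cholesterol, went from 1840 ± 159 CPM in LPS to 5105 ± 185 CPM in T0+LPS. Of the 7 genes listed as treatment checks, 5 were called higher and 2 lower in LPS against Veh (32.9% and 31.2% of all symbols tested). In T0+LPS against LPS 4 were called higher and 2 lower (1.35% and 1.83%). Scd2, a fatty acid desaturase, was the check gene with the largest T0 change, 15.2-fold, followed by the cholesterol exporter Abcg1 at 4.26-fold, Abca1 at 2.77-fold and the lipogenic regulator Srebf1 at 2.47-fold. With T0, Cxcl1, a chemokine, fell by 15.9% and Il1b fell by 28.5%.

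The genes could not all be measured equally well. The deposited table has 1 row per RefSeq transcript, and reads on bases that rows of the same gene share were not in it: of the 32850 rows, 6696 had no base of their own and none of these had a count. For the 6 genes with 1 row all bases were counted: Mmp8, Mmp9, Mmp12, Mmp13, Mmp14 and Timp2. The other 4 had 2 or more rows. Mmp19, a secreted MMP, could be counted on 221 bases, Adam17 on 99 bases over 5 rows, Adam8, a protease of leukocyte surfaces, on 27 bases, and Timp1, the inducible secreted inhibitor, on 3 bases. Timp1 had 0 reads in all 9 libraries, and Adam8 had 1 read each in Veh replicates 1 and 3 and LPS replicate 3. With so few countable bases, these values do not show whether Timp1 and Adam8 RNA was present. A planned ratio of Timp1 to Timp2 could therefore not be computed.

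**Figure D1:**
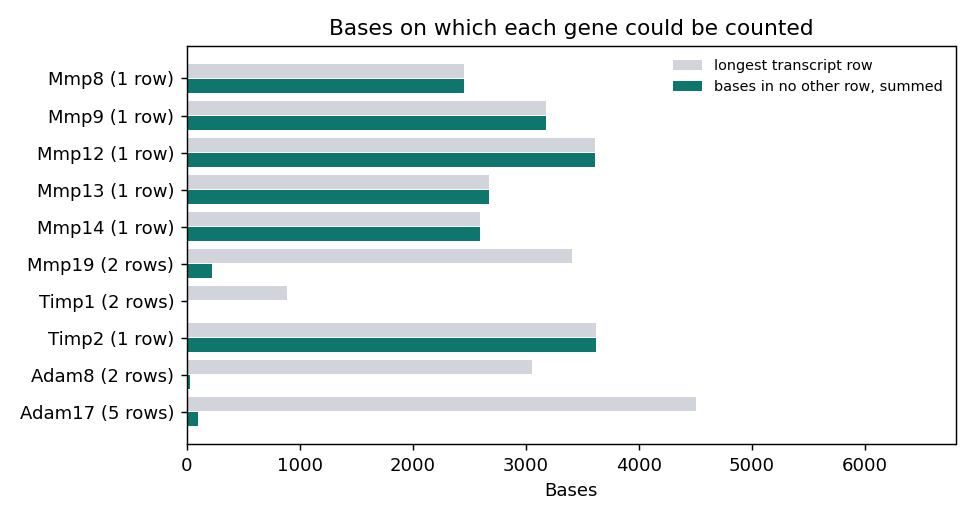
Bases of the longest transcript row (grey) and bases found in no other row, summed per gene (green), with the x axis in bases. The green bar matches the grey bar for the 6 genes with 1 row and is between 3 and 221 bases for Mmp19, Timp1, Adam8 and Adam17.

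Mmp13, Mmp12 and Mmp8 lie in the MMP cluster of chromosome 9, within 295973 bases on the plus strand (mm10): Mmp13 at chr9:7272514-7283333, Mmp12 at chr9:7347374-7360461 and Mmp8 at chr9:7558429-7568486. Mmp14 is at chr14:54431604-54441258, Mmp9 at chr2:164948219-164955849 and Mmp19 at chr10:128790910-128800824, all on the plus strand. Timp2 is on the minus strand at chr11:118301061-118355411, Timp1 on the plus strand at chrX:20870166-20874737, Adam8 on the minus strand at chr7:139978938-139992509 and Adam17 on the minus strand at chr12:21323509-21373632. Promoter sequence was available for 8 of the 10 genes from RefSeq (GRCm38.p6), all but Mmp9 and Mmp19. The 250 bases before the transcript start are given for the 2 measured genes with the largest LPS response that have an entry, Mmp14 and Mmp13, and for Mmp12, the most abundant one, 5′ to 3′ on the gene's strand, which is plus for all 3. Capitals mark matches on either strand to the AP-1 heptamer TGAGTCA, to TATAAA and to the NF-kB site; Mmp14 has none.
Mmp14 promoter, chr14:54431348-54431597: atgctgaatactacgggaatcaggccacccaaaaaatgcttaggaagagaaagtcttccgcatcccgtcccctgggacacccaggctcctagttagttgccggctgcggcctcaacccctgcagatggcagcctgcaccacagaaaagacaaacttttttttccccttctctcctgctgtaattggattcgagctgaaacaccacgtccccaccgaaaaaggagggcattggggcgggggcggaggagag
Mmp13 promoter, chr9:7272264-7272513: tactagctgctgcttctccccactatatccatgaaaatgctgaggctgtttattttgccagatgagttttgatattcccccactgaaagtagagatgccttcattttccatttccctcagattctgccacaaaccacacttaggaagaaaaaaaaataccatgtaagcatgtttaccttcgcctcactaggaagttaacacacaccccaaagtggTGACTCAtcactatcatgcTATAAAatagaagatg
Mmp12 promoter, chr9:7347124-7347373: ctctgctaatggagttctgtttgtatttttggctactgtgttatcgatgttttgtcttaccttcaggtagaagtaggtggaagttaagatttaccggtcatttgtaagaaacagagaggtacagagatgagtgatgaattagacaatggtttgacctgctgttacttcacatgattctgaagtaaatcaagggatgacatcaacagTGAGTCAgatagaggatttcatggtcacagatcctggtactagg
The Mmp13 window held the AP-1 heptamer on the minus strand, read on the plus strand as TGACTCA, at -35 to -29 from the start (the last base before the start is -1), and TATAAA at -16 to -11. The Mmp12 window held TGAGTCA on the plus strand at -44 to -38 and the nuclear receptor half-site AGGTCA on the minus strand at -99 to -94, which does not overlap it. AP-1 is the Fos and Jun dimer, a well-known activator of collagenase genes. Of 32841 promoter windows of the same length, 4.46% held TGAGTCA, 12.4% TATAAA, 3.9% the NF-kB site and 14% AGGTCA. The LXR element DR4, a direct repeat of the half-site, was in 0.0152% of all windows and in none of the 8. The remaining 5 windows, those of Mmp8, Timp1, Timp2, Adam8 and Adam17, held none of these letters apart from an ETS motif, GAGGAAG, on the minus strand at -220 to -214 of Mmp8, a motif found in 10.6% of windows. These matches are descriptions of sequence and no binding was measured.

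Among the genes that could be counted, Mmp12 dominated in every condition. It encodes macrophage elastase, the MMP by which macrophages cut elastin. In Veh it stood at 6293, 6174 and 6050 CPM, in LPS at 7563, 6902 and 6912 CPM, and in T0+LPS at 6610, 6225 and 7100 CPM (scaled by TMM factors over the 9 libraries). LPS libraries all lay above Veh libraries, and T0+LPS libraries overlapped both. Per length, Mmp12 was at 1711 CPM per kilobase in Veh, which ranked it 19th of 20028 symbols with at least 200 countable bases, and it ranked 22nd in LPS and 25th in T0+LPS. Of the summed level per length of the 6 Mmp genes, Mmp12 made up 96.2 ± 0.138% in Veh, 89.5 ± 0.0694% in LPS and 89.4 ± 0.725% in T0+LPS.

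Timp2, the constitutive secreted inhibitor, was the next most abundant of the 6 fully counted genes. It stood at 805, 787 and 770 CPM in Veh, 698, 667 and 686 CPM in LPS and 635, 675 and 648 CPM in T0+LPS. All 6 treated libraries were below all Veh libraries, while LPS and T0+LPS overlapped. Its rank by level per length was 278th in Veh, 414th in LPS and 443rd in T0+LPS.

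Mmp14 had the lowest level of the 6 fully counted genes in Veh and changed most. It encodes a collagenase anchored in the plasma membrane that also activates pro-MMP2. Its levels were 1.92, 2.05 and 2.66 CPM in Veh, from 31 to 46 reads per library, then 142, 124 and 128 CPM in LPS and 104, 117 and 121 CPM in T0+LPS. The Veh libraries were far below the rest, and the highest T0+LPS library was just below the lowest LPS library. By level per length Mmp14 moved from rank 8658 in Veh to 1663 in LPS and 1875 in T0+LPS.

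Mmp13, which encodes collagenase 3 and cuts fibrillar collagen, was at 38.3, 46 and 41.1 CPM in Veh, 272, 254 and 267 CPM in LPS and 211, 248 and 254 CPM in T0+LPS. LPS and T0+LPS met at 254 CPM, and T0+LPS replicate 1 was the lowest treated library. Mmp9, which encodes gelatinase B, was at 36.1, 39 and 37.8 CPM in Veh, 143, 128 and 115 CPM in LPS and 130, 108 and 146 CPM in T0+LPS. Here the 2 treated groups overlapped fully. Mmp8, which encodes the collagenase best known from neutrophils, hardly spread: 76.8, 82.3 and 77.4 CPM in Veh, 96.8, 91.4 and 83.9 CPM in LPS and 82, 95.7 and 96.2 CPM in T0+LPS. T0+LPS replicate 1 was within the Veh range.

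Mmp19 rested on few reads, 37, 22 and 29 in Veh, 12, 19 and 13 in LPS and 18, 25 and 22 in T0+LPS, or 1.98, 1.45 and 1.68 CPM, 0.951, 1.38 and 1 CPM, and 1.37, 1.74 and 1.53 CPM. All LPS libraries were below all Veh libraries. Adam17, the TNF-converting enzyme, had 7, 5 and 2 reads in Veh, 11, 13 and 8 in LPS and 7, 20 and 18 in T0+LPS. As CPM its treated libraries lay above its Veh libraries, but it passed the filter on low counts only in T0+LPS against LPS. In the 6 alternative fits of LPS against Veh that did test it, its log2 fold change was 1.18 to 1.87 (edgeR adjusted p from 0.0068 to 0.035), on reads from 99 bases. Where those fits used a low-count filter, Adam17 passed it only through treated libraries, where it was high. These p-values are therefore no separate support for a rise.

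**Figure D2:**
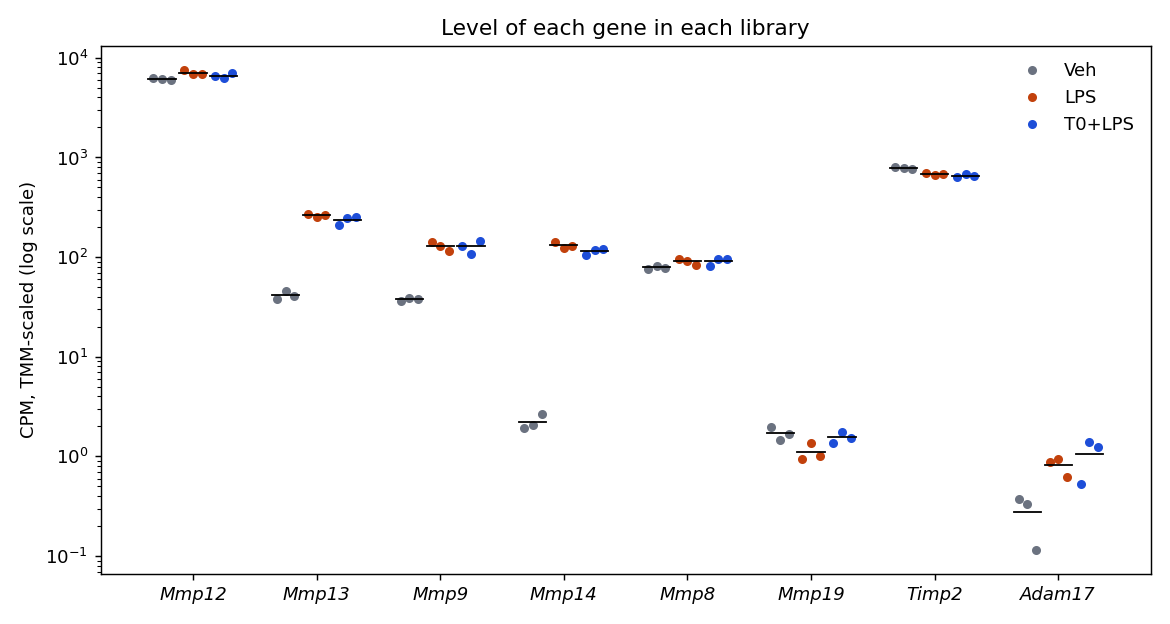
CPM scaled by TMM factors (log axis) for the 8 genes with a countable level, 1 point per library and a bar at the mean of 3 libraries, for Veh, LPS and T0+LPS. Mmp14 rises from 2.21 CPM in Veh to 131 CPM in LPS, Mmp12 stays between 6050 and 7563 CPM, and Timp1 and Adam8, with 0 and 3 reads in all, are not drawn.

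The order of levels per length shifted with LPS. In Veh it ran Mmp12, Timp2, Mmp8, Mmp13, Mmp9 and Mmp14 among the fully counted genes, the middle ranks being 2145 for Mmp8, 3853 for Mmp13 and 4540 for Mmp9. In LPS it ran Mmp12, Timp2, Mmp13, Mmp14, Mmp9 and Mmp8. Ranks of Mmp9 (1833 to 2196) and Mmp8 (2056 to 2302) overlapped between LPS libraries, and Mmp14 (1548 to 1764) stood apart from both. The order of means was the same in T0+LPS, where the ranks of Mmp14 (1778 to 2021), Mmp9 (1784 to 2312) and Mmp8 (2054 to 2374) overlapped from 1 gene to the next.

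The first comparison asked how LPS changed these genes. Of the 7 tested genes 5 rose and 1 fell: Mmp14 rose 59.3-fold, Mmp13 6.35-fold and Mmp9 3.43-fold, Mmp8 and Mmp12 rose by 15.3% and 15.7%, and Timp2 fell by 13%. In edgeR's quasi-likelihood test, 32.9% of the 9559 symbols tested were called higher at a Benjamini-Hochberg adjusted p under 0.05, and 31.2% lower. The libraries of the 2 groups did not overlap for any of the 7, being higher in LPS for 5 and lower for 2 (Timp2 and Mmp19), as against 33.6% and 33.7% of all symbols. The median log2 fold change was 0.21 over the 7 genes and -0.00 over all symbols tested. Because bulk RNA was measured, fewer cells of a type and less RNA per cell cannot be told apart.

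Mmp14 had a log2 fold change of 5.89 (SE 0.10, edgeR adjusted p = 1.5e-17), the largest of the 7. Mmp13 followed with 2.67 (SE 0.06, edgeR adjusted p = 7.8e-16) and Mmp9 with 1.78 (SE 0.07, edgeR adjusted p = 1.3e-12). These 3 kept their direction and their call in all 10 alternative fits and in all 6 fits without 1 library. They encode a membrane-bound collagenase, a secreted collagenase and a gelatinase.

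Smaller changes depended on scaling. Mmp8 rose by 0.21 on the log2 scale (SE 0.06, edgeR adjusted p = 0.0045) and Mmp12 by 0.21 (SE 0.04, adjusted p = 4.9e-04). With library totals in place of TMM factors, the median of all symbols was -0.28 and the 2 values became -0.08 (adjusted p = 0.21) and -0.07 (adjusted p = 0.11). Relative to that median both still lay above it. Timp2 fell by 0.20 on the log2 scale (SE 0.04, edgeR adjusted p = 3.1e-04) and was called lower in every alternative, between -0.48 and -0.20. Mmp19 had a log2 fold change of -0.61 (SE 0.26, edgeR adjusted p = 0.051) and was not called; its adjusted p was 0.0058 with library totals, 0.046 in a fit to all 9 libraries, 0.044 without Veh replicate 2 and 0.034 without LPS replicate 2. Over its 16 alternatives that p ran from 0.0058 to 0.34.

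Mmp8 and Mmp9 are also neutrophil genes, so neutrophil markers were read beside them. Of the 12 markers 11 were in the table, 1 of them at 1 CPM or more on average (S100a8), and their summed level was 1.55 to 2.14 CPM in Veh, 3.32 to 4.08 CPM in LPS and 2.44 to 3.65 CPM in T0+LPS. Elane, the neutrophil elastase gene, had no read in Veh or LPS, Mpo averaged at most 0.0757 CPM in a group, and Retnlg had no read at all. S100a9 was also at 0, on only 3 countable bases. S100a8 itself went from 0.987 to 2.28 CPM (log2 fold change 1.22, edgeR adjusted p = 0.001). The part of such cells in the Mmp8 and Mmp9 values was not tested.

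**Figure D3:**
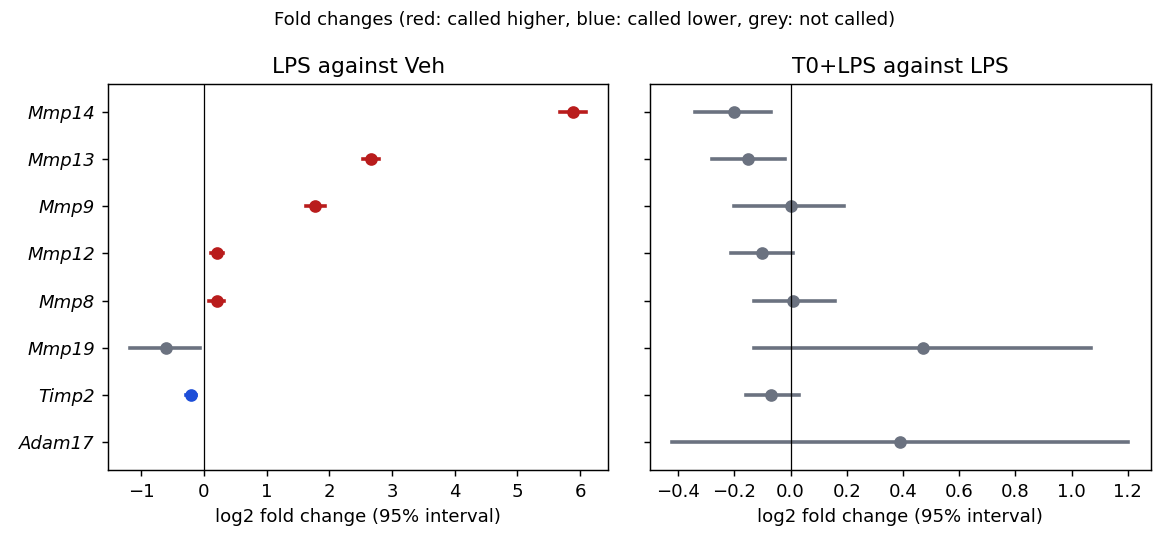
Log2 fold change (x axis) with its 95% interval for each tested gene, LPS against Veh on the left and T0+LPS against LPS on the right; red is called higher, blue called lower and grey not called in edgeR. Mmp14, Mmp13 and Mmp9 stand at 5.89, 2.67 and 1.78 on the left, whereas on the right all 8 genes are grey; the axes differ in scale.

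Within a library, 2 count ratios moved by more than the spread, 1 of an enzyme to an inhibitor and 1 of 2 enzymes. The log2 ratio of Mmp14 to Timp2 counts was -8.69, -8.56 and -8.16 in Veh and -2.30, -2.42 and -2.42 in LPS, a 68.1-fold higher ratio (2-sided exact permutation test, p = 0.1, the smallest p that 3 against 3 allows). The log2 ratio of Mmp13 to its cluster neighbour Mmp12 was -7.36, -7.07 and -7.20 in Veh and -4.80, -4.76 and -4.70 in LPS, 5.49-fold higher (exact permutation p = 0.1). Such ratios do not depend on library scaling. They do not give the balance of all the enzymes to Timp2. Mmp12, the most abundant enzyme, was at 1711 CPM per kilobase in Veh and 1975 in LPS, beside 217 and 189 for Timp2. Among the Mmp genes per length, Mmp13 went from 0.879 ± 0.0872% to 4.48 ± 0.159% of the sum and Mmp14 from 0.048 ± 0.00951% to 2.29 ± 0.0493%. Mmp9 went from 0.667 ± 0.0333% to 1.84 ± 0.122%, and Mmp8 from 1.81 ± 0.0778% to 1.67 ± 0.0727%.

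**Figure D4:**
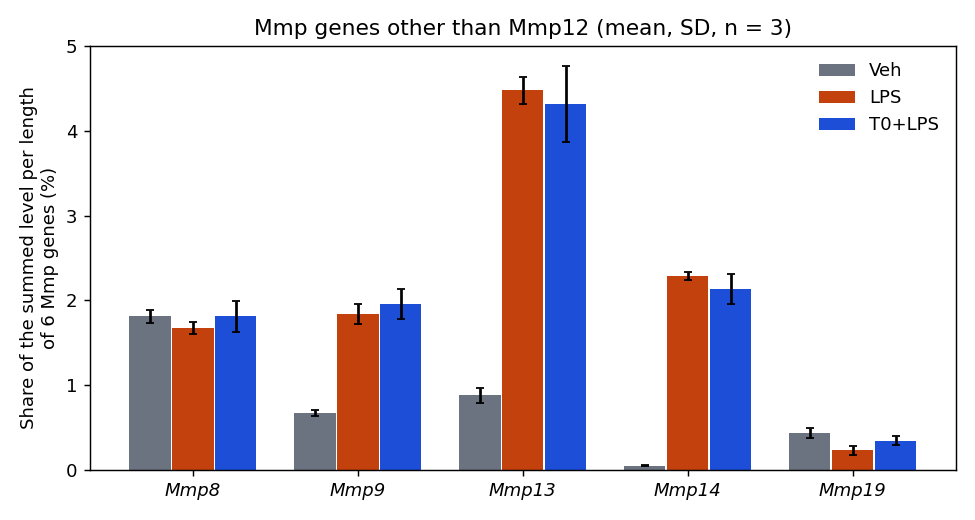
Share (%) of the summed level per length of 6 Mmp genes taken by each gene other than Mmp12, as the mean of 3 libraries with SD, for Veh, LPS and T0+LPS. Mmp13, Mmp14 and Mmp9 take larger shares in LPS than in Veh, and in T0+LPS they stand at 4.32%, 2.13% and 1.96%; Mmp19 rests on 221 bases.

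The second comparison asked whether LXR agonist given before and during LPS changed these LPS levels. None of the 8 tested genes passed the adjusted threshold in edgeR, and DESeq2 and limma-voom also called 0 of them; 2, Mmp14 and Mmp13, were under 0.05 before adjustment. Of the 9348 symbols tested, 1.35% were called higher and 1.83% lower, and 1299 were under 0.05 before adjustment. Mean log2 fold changes were above 0 for 3 of the genes and below 0 for 5, with a median of -0.04 beside 0.00 over all symbols.

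Mmp14 came nearest, with a difference of -13.2% and a 95% interval from -21% to -4.53% (log2 fold change -0.20, SE 0.06, edgeR adjusted p = 0.12). Its groups did not overlap, the only such case among the 8; all symbols were so in 9.62% in the lower and 9.51% in the higher direction. It passed only when no filter on low counts was used (adjusted p = 0.02), and over all its alternatives the adjusted p ran from 0.02 to 0.51. Mmp13 differed by -9.94%, with an interval from -17.9% to -1.25% (edgeR adjusted p = 0.27). In T0+LPS, Mmp14 was 50.6-fold and Mmp13 5.62-fold above Veh.

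The other fully counted genes had narrow intervals that included 0. Mmp12 differed by -6.74% (95% interval -13.5% to 0.593%, edgeR adjusted p = 0.41) and Timp2 by -4.55% (-10.5% to 1.83%, adjusted p = 0.57). Mmp9 differed by -0.338% (-12.8% to 13.9%, adjusted p = 0.99) and Mmp8 by 0.776% (-8.9% to 11.5%, adjusted p = 0.97). None of these 4 intervals reached below -13.5% or above 13.9%. Mmp19 and Adam17 could not be judged at this depth, since their intervals ran from -8.75% to 109% and from -25.2% to 130%.

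The ratios moved little with T0. The Mmp14 to Timp2 log2 ratio was -2.61, -2.52 and -2.42 in T0+LPS, overlapping LPS and 0.14 lower on average (exact permutation p = 0.2). That of Mmp13 to Mmp12 was -4.97, -4.65 and -4.80, on average 0.05 lower (exact permutation p = 0.7), and 0.03 higher without T0+LPS replicate 1.

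The values of T0+LPS against Veh, which share libraries with both comparisons above, are given side by side with them for completeness. Of 7 tested genes 4 were called higher and 1 lower, beside 32.4% and 32.9% of 9636 symbols. Log2 fold changes were 5.66 for Mmp14, 2.49 for Mmp13, 1.75 for Mmp9, 0.19 for Mmp8 and -0.29 for Timp2 (edgeR adjusted p = 5.3e-17, 3.0e-14, 1.9e-11, 0.0082 and 2.4e-06). Mmp12, at 0.08 (edgeR adjusted p = 0.088), and Mmp19, at -0.17 (adjusted p = 0.55), were not called. Adam17, not tested here, had log2 fold changes of 1.55 to 2.24 in the 6 alternative fits that did test it (edgeR adjusted p from 1.7e-04 to 0.014). Here too, fits with a low-count filter admitted it only through treated libraries, where it was high. Mmp12 was called higher in 3 other fits and without T0+LPS replicate 2, and lower with library totals at -0.18.

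Genes with the most similar course over the 9 libraries were found by the root mean square difference of centred log2 CPM among 8995 genes with at least 1 CPM. For Mmp9 the nearest was Plau, which encodes the urokinase that makes plasmin from plasminogen, at 0.09, then Prdx5 at 0.11. For Mmp14 they were Bcl2a1d, a member of a gene family of near-identical copies, and the inflammasome gene Nlrp3, both at 0.12. For Mmp13 they were Akna at 0.07 and Sh3bp4 at 0.09, for Mmp12 B630005N14Rik at 0.03 and Tusc3 at 0.04, and for Mmp8 Mpc1 and Rdh11 at 0.05. Timp2 was nearest to Glul, the glutamine synthetase gene, at 0.01 and to Ap2a2 at 0.03, and Mmp19 to Spns1 and Fanci at 0.11.

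Other genes of the family mostly had few counts. Of 17 other Mmp genes, 1 had under 200 countable bases and 16 averaged under 1 CPM. Mmp1a, Mmp7 and Mmp16 had no read. Mmp28 also had none, but on only 42 countable bases, which does not show its level. Of the 17 genes 2 were tested. With LPS 1 rose and 1 fell (32.9% and 31.2% of all symbols), and none was called with T0 (1.35% and 1.83%). Mmp27, the most abundant of them per length, was at 13.9 ± 0.782 CPM in Veh and 9.91 ± 1.7 CPM in LPS (log2 fold change -0.49, edgeR adjusted p = 0.0016). Mmp2, gelatinase A, the proenzyme that MMP14 activates, was at 0.41 ± 0.016 CPM in Veh and 1.26 ± 0.575 CPM in LPS (log2 fold change 1.61, edgeR adjusted p = 0.0018), from 6 to 26 reads per library. With 8, 6 and 7 reads in Veh and 14, 26 and 10 in LPS, it passed the low-count filter only through LPS. Its call, and its place as the 1 gene that rose, are conditional on that high LPS level. Mmp11 was at 0.824 CPM or less in each group. All 5 other inhibitors listed were under 1 CPM, with Reck, a membrane-anchored inhibitor, at 0.816 ± 0.207 CPM in Veh and 0.46 ± 0.0893 CPM in LPS, Timp3 and Timp4 at 2 reads or fewer in each library, and A2m and Pzp at 0. None of them was tested in LPS against Veh or in T0+LPS against LPS. Timp2 was thus the one inhibitor of those listed with a measured level above 1 CPM, Timp1 being uncountable.

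Of 20 other ADAM and ADAMTS genes, 9 had no read, 5 had under 200 countable bases and 5 were tested; with LPS 1 rose and 2 fell (32.9% and 31.2% of all symbols), and with T0 none rose and 1 fell (1.35% and 1.83%). Adam9, Adam19 and Adamts10, all without a read, had only 54, 52 and 0 countable bases, which does not show their level. Adam10, the sheddase closest to Adam17 in function, was at 264 ± 6.38, 255 ± 11 and 241 ± 2.76 CPM in Veh, LPS and T0+LPS. It was not called in LPS against Veh or T0+LPS against LPS. Without LPS replicate 3 it was called lower in LPS (edgeR adjusted p = 0.029). With library totals it was called lower in LPS (log2 fold change -0.33, edgeR adjusted p = 8.8e-06), but the median of all symbols in that setting was itself -0.28. In T0+LPS against Veh it was called lower, with a difference of -10.2% (edgeR adjusted p = 0.0012). Adam15, counted on only 147 bases over 2 rows, fell with LPS (log2 fold change -0.52, edgeR adjusted p = 0.0078). Without Veh replicate 1 its edgeR adjusted p was 0.051. Adamts4, an aggrecan-cutting enzyme, had 1, 0 and 1 reads in Veh, 435, 399 and 511 in LPS and 192, 365 and 384 in T0+LPS. The T0+LPS libraries at 14.6, 25.4 and 26.6 CPM all lay below the LPS libraries at 34.5, 29 and 39.5 CPM. The level fell by 34.8% (edgeR adjusted p = 0.049, at the threshold; 0.36 in DESeq2, and from 0.068 to 0.15 without either of LPS replicates 1 and 3 or T0+LPS replicates 1 and 2).

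ADAM17 needs partners to mature and reach the surface. Of 5 such genes, 2 were tested, and with LPS 1 rose and 1 fell (32.9% and 31.2% of all symbols). Frmd8, which stabilizes the rhomboid partner of ADAM17, fell with LPS by 0.24 on the log2 scale (edgeR adjusted p = 3.8e-04). Furin, which removes propeptides, rose by 0.93 (edgeR adjusted p = 1.6e-04), counted on only 346 bases over 2 rows. Rhbdf1 had at most 2 reads in a library, on only 119 countable bases, which does not show its level. Neither tested partner was called with T0. Of 14 ADAM17 substrates 9 were tested, and with LPS 7 rose and 2 fell, beside 32.9% and 31.2% of all symbols. Tnfrsf1b, a TNF receptor, rose 3.38-fold, Csf1r by 19.4% and Tnfrsf1a by 13.7%, the last pair with the sign turned under library totals (-0.03 and -0.10 on the log2 scale). With T0 1 substrate was called (1.35% of all symbols were called higher), Mertk, a receptor for uptake of apoptotic cells and a known LXR target, which went from 34.8 ± 1.17 to 72.8 ± 3.63 CPM (log2 fold change 1.06, edgeR adjusted p = 2.9e-08) after a level of 61 ± 0.775 CPM in Veh.

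The last list held genes that act in the activation or clearance of proenzymes, among them the plasminogen activators. Of 14 genes 8 were tested; 6 rose and 1 fell with LPS (32.9% and 31.2% of all symbols), and none rose and 2 fell with T0 (1.35% and 1.83%). Plaur, the urokinase receptor, was at 58.2, 64.3 and 60.7 CPM in Veh, 307, 305 and 276 CPM in LPS and 224, 224 and 231 CPM in T0+LPS. The T0+LPS libraries lay between the other groups without overlap, and the level fell by 23.5% from LPS (95% interval -29% to -17.6%, edgeR adjusted p = 3.7e-04). The call of Plaur held in all 10 alternatives and all 6 fits without 1 library. Plau itself rose 3.24-fold with LPS and differed by -1.32% with T0 (95% interval -10.1% to 8.32%, edgeR adjusted p = 0.94). Lrp1, the endocytic receptor that clears urokinase and several MMPs, fell by 15% with LPS and was not called with T0 (7.52%, edgeR adjusted p = 0.5).

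**Figure D5:**
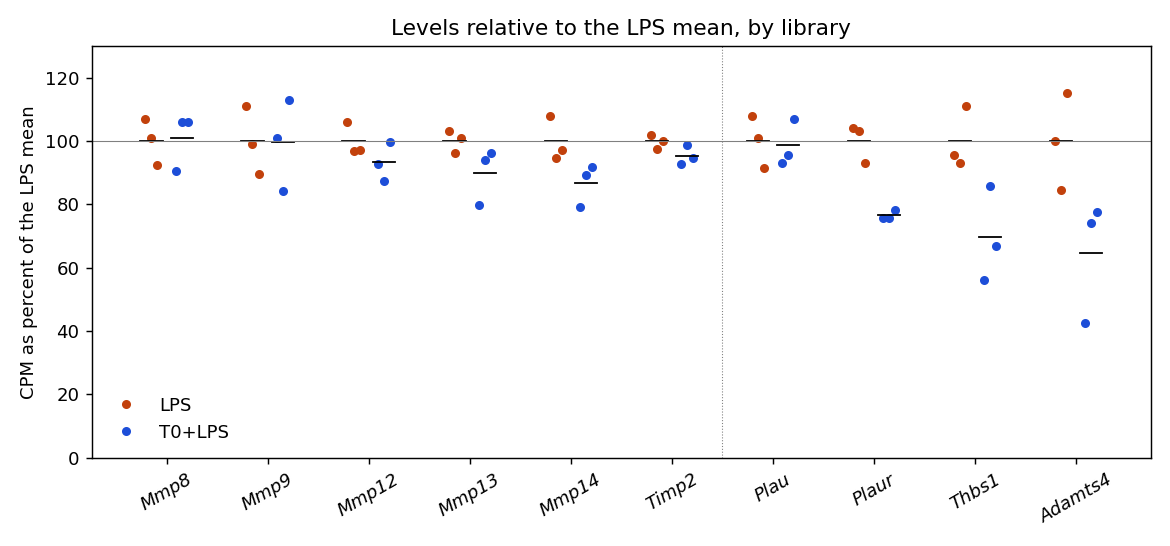
Level in each LPS and T0+LPS library as a percent of the LPS mean (y axis, from 0), with a bar at each group's mean. The 6 fully counted genes are left of the dotted line, and Plau, Plaur, Thbs1 and Adamts4 right of it. Of those on the right, all but Plau were called lower with T0. Other listed genes, among them Mertk, called higher with T0, and Adam10 and Lrp1, not called, are not drawn. Mmp14 averages 86.8% in T0+LPS and Plaur 76.5%, while Mmp9 is at 99.6% and Plau at 98.6%.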

How the data were processed

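Poly(A) RNA of 9 BMDM libraries (3 groups of 3) was sequenced. The authors trimmed reads with cutadapt, aligned them with HISAT2 (mm10) and deposited raw counts per RefSeq transcript row from featureCounts, with no normalization; further deposited tables hold the authors' own comparisons and were not used. Here rows were summed per symbol. Each pair of groups was fitted in edgeR 4.0.16 (R 4.3.3) on its 6 libraries, with TMM factors (1.14 in each Veh library, 0.931 to 0.948 in the others), filterByExpr, the quasi-likelihood test and Benjamini-Hochberg adjustment over all symbols, called at adjusted p under 0.05. Intervals are 95% intervals from that fit. Levels are CPM with TMM factors over 9 libraries; per length means per kilobase of bases in no other row. Ratios added 0.5 to each count. Alternatives were DESeq2 1.42.0, limma-voom (limma 3.58.1), other scalings and filters, each row on its own, all 9 libraries, a replicate block and leaving out each library. The edgeR p-values weigh a difference against the spread between cultures, which is estimated for each gene and pulled towards that of all genes. For low genes such as Mmp19 counting error is a large part of that spread. Replicates differed by more than sampling noise. Scripts were tested on simulated data. Genes, lists and tests were chosen with earlier results of these data known; from each list the 3 genes highest per length and those called with T0 are named (1 gene of the activation list is not reported here), and further genes (listed at 0, or S100a8 and the other markers) were named after their values were seen. The most similar genes are the 2 with the smallest difference from each gene tested with LPS.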

Additional observations from a re-analysis of the deposited data

How the results depend on the processing

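The few countable reads limit Mmp19, Adam17, Adam8 and Timp1. Same-numbered libraries shared almost no deviation from their group means (correlations -0.014 to 0.047), which does not settle whether their cultures were paired. A replicate block changed no call of the 10 genes in edgeR. In T0+LPS against Veh, DESeq2 called 5 of the 10 genes higher without the block and 4 with it. For T0+LPS against LPS the block moved the symbols called higher and lower from 126 and 171 to 155 and 230 in edgeR. In DESeq2 it moved them from 119 and 166 to 72 and 83. For T0+LPS against Veh, DESeq2 called 2047 symbols lower with the block and 2655 without. With library totals alone, LPS against Veh gave 1694 symbols higher and 5411 lower (76.2% of calls lower against 48.6%) and 3 of the genes higher and 2 lower, T0+LPS against Veh gave 1659 and 5523 with 2 of the genes lower, and signs turned for Mmp8 (-0.08 with LPS, -0.07 with T0+LPS, both against Veh), Mmp12 (-0.07 and -0.18), Csf1r (-0.03), Tnfrsf1a (-0.10), Ctsb (-0.27) and Cst3 (-0.27); that setting moves the median of all symbols by -0.28. A fit to all 9 libraries called 2 of the genes lower with LPS, the second being Mmp19. Without a filter, T0+LPS against LPS gave 225 symbols higher and 285 lower and 1 of the genes lower (Mmp14), and Ctsb and Cst3 were -0.01 with LPS. Leaving out 1 library gave no call of the 10 genes with T0, 5 to 6 called higher and 1 to 2 lower with LPS (Adam17 and Mmp19 being the added ones), 59 to 167 symbols higher and 82 to 191 lower with T0, against 126 and 171 (59 and 82 without LPS replicate 1, 78 and 94 without T0+LPS replicate 2, 103 lower without T0+LPS replicate 1), and a T0 change of the Mmp13 to Mmp12 log2 ratio of -0.13 to 0.03. Signs also turned in such fits for changes near 0 that none of these fits called: with LPS, Ctsd (-0.07 to 0.01), Ctsb (-0.01 to 0.04) and Cst3 (-0.06 to 0.06); with T0, Mmp8 (-0.04 to 0.08), Mmp9 (-0.11 to 0.11), Mmp2 (-0.31 to 0.45), Adam15 (-0.09 to 0.17), Plau (-0.08 to 0.04), Ctsd (-0.03 to 0.06) and Ctsb (-0.00 to 0.05). Elsewhere the 10 genes kept their sign, and T0 calls of Thbs1, Adamts4 and Il1b and LPS calls of Mmp2 and Adam15 were lost in DESeq2 with a block. The cause of these shifts was not tested.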

Other observations

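Matrix genes and cathepsins were read beside the proteases. Of 17 matrix genes 6 were tested; 4 rose and none fell with LPS (32.9% and 31.2% of all symbols), and none rose and 1 fell with T0 (1.35% and 1.83%; median log2 fold changes 1.79 and -0.20, beside -0.00 and 0.00 over all symbols). Thbs1, which encodes the matricellular protein thrombospondin-1, was at 57.4, 41.6 and 42.5 CPM in Veh, 125, 122 and 146 CPM in LPS and 73.2, 112 and 87.4 CPM in T0+LPS. Its T0+LPS libraries were all below its LPS libraries, and the level fell by 30.3% (edgeR adjusted p = 0.016; 0.15 in DESeq2 and 0.072 without T0+LPS replicate 3). Spp1, which encodes osteopontin, went from 0.642 ± 0.398 to 2.79 ± 0.396 CPM with LPS (log2 fold change 2.10, edgeR adjusted p = 2.2e-05; 2.73 without Veh replicate 3), counted on only 183 bases over 5 rows, and was at 2.07 ± 0.136 CPM in T0+LPS (edgeR adjusted p = 0.4). Lamc1, a laminin chain, was not called in LPS against Veh or T0+LPS against LPS. In T0+LPS against Veh it was called lower (-17.4%, edgeR adjusted p = 2.9e-04). For LPS against Veh its edgeR adjusted p was 0.069, and 0.011 without LPS replicate 3 or 0.047 without Veh replicate 3. It was also called in 2 of the 10 alternative fits of LPS against Veh. Thrombospondin-1 and osteopontin are themselves cut by MMPs.

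The cathepsins of matrix breakdown, lysosomal proteases, were listed with their inhibitors. Of 9 such genes 8 were tested; 3 rose and none fell with LPS (32.9% and 31.2% of all symbols), and none was called with T0 (median log2 fold changes 0.07 and 0.03). Cathepsin D (Ctsd) was at 13897 ± 93, 13555 ± 956 and 13804 ± 184 CPM in Veh, LPS and T0+LPS. Cathepsin B (Ctsb) was at 19816 ± 108, 20010 ± 858 and 20407 ± 453 CPM, and cystatin C (Cst3), which inhibits cysteine cathepsins, at 1585 ± 10.7, 1596 ± 128 and 1701 ± 41.7 CPM. None of these 3 was called in LPS against Veh or T0+LPS against LPS. With library totals each was called lower in LPS, at log2 fold changes from -0.32 to -0.27, beside a median of -0.28 over all symbols in that setting. Cst3 was called higher in T0+LPS against Veh (5.71%, edgeR adjusted p = 0.043).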
